A study of Homo sapiens with 12 samples.

Results

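The genes described here build and modify the extracellular matrix: laminin chains, collagens, basement membrane linkers, matricellular glycoproteins, fibrillins and latent TGF-beta binding proteins, collagen-modifying enzymes and 2 syndecans. The group was a list of 43 gene symbols looked up in the deposited count table of 25382 symbols, with fibronectin (FN1) left out. All 43 were found, and 41 of them passed the low-count filter that left 15437 genes for testing. The cells were Cal27, a human epithelial line of tongue squamous carcinoma that the labels give as wild type. They were conditioned for 5 days and then replated for 1 day, on polyacrylamide gels coated with collagen, of 0.48 kPa (soft) or 20 kPa (stiff).

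There were 4 conditions with 3 libraries each, and every condition ended on a soft gel. Control cells (soft to soft in the labels) were on soft gels throughout, without treatment. Stiff-primed cells (stiff to soft) spent the conditioning on the stiff gel. LPA-primed cells (soft LPA to soft) spent it on the soft gel with lysophosphatidic acid (LPA), a signalling lipid that promotes actomyosin contraction. FAKi cells (soft LPA to soft FAKi) were conditioned like the LPA-primed cells and then replated with a FAK inhibitor that the labels do not name. FAK, focal adhesion kinase, signals from integrin adhesions. The series design sets a class with memory of the conditioning (stiff-primed and LPA-primed, 6 libraries) against a class without it (control and FAKi, 6 libraries). The labels do not state whether replicates were separate cultures of this line, so a p-value here measures the spread between these libraries, which can be of technical origin.

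Epithelial cells rest on a basement membrane, a sheet of laminin and collagen IV networks that are joined by nidogens, perlecan (HSPG2) and agrin (AGRN). In stratified epithelium the basal cells are held to it by a laminin that holds the LAMA3 and LAMB3 chains, by the transmembrane collagen COL17A1 of hemidesmosomes and by anchoring fibrils of COL7A1. Fibrillar collagens are mostly made by fibroblasts, and carcinoma cells can make matrix of their own. Prolyl and lysyl hydroxylases modify collagen chains inside the cell, and lysyl oxidases crosslink them outside it.

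To compare levels between genes, CPM (library-scaled counts, TMM method of edgeR) were divided by kilobases of exon. LAMB3 stood highest at 221 ± 80.7 CPM per kilobase (SD, n = 12). COL17A1 followed at 162 ± 42.1, then SDC4 at 146.8 ± 25.04, TGFBI at 146.4 ± 19.2, SDC1 at 139.8 ± 32.5, THBS1 at 136.9 ± 39.6 and SPARC at 133.5 ± 57.3. Neighbours in this order from SDC4 to SPARC differed by less than their spread over libraries. Of the other genes that anchor basal cells, COL7A1 stood at 31.8 and LAMA3 at 7.18 CPM per kilobase. At the other end, the fibrillar collagen genes COL1A2 and COL5A2 stood at 0.324 ± 0.197 and 0.126 ± 0.0289 CPM per kilobase, and fibrillin 1 (FBN1) at 0.00942 ± 0.00518. Both nidogen genes failed the filter: NID1 had 1 and 4 counts in control replicates 1 and 2 and 0 in the other 10 libraries, and NID2 had 2 counts in FAKi replicate 2 and 0 elsewhere. Both nidogens were therefore at or next to the detection limit in all 12 libraries, unlike AGRN at 108.5 ± 17.7 CPM per kilobase. Exon lengths came from another annotation and build than the counts, and a gene with a long and a short isoform, such as LAMA3, can be placed too low by them.

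**Figure D1:**
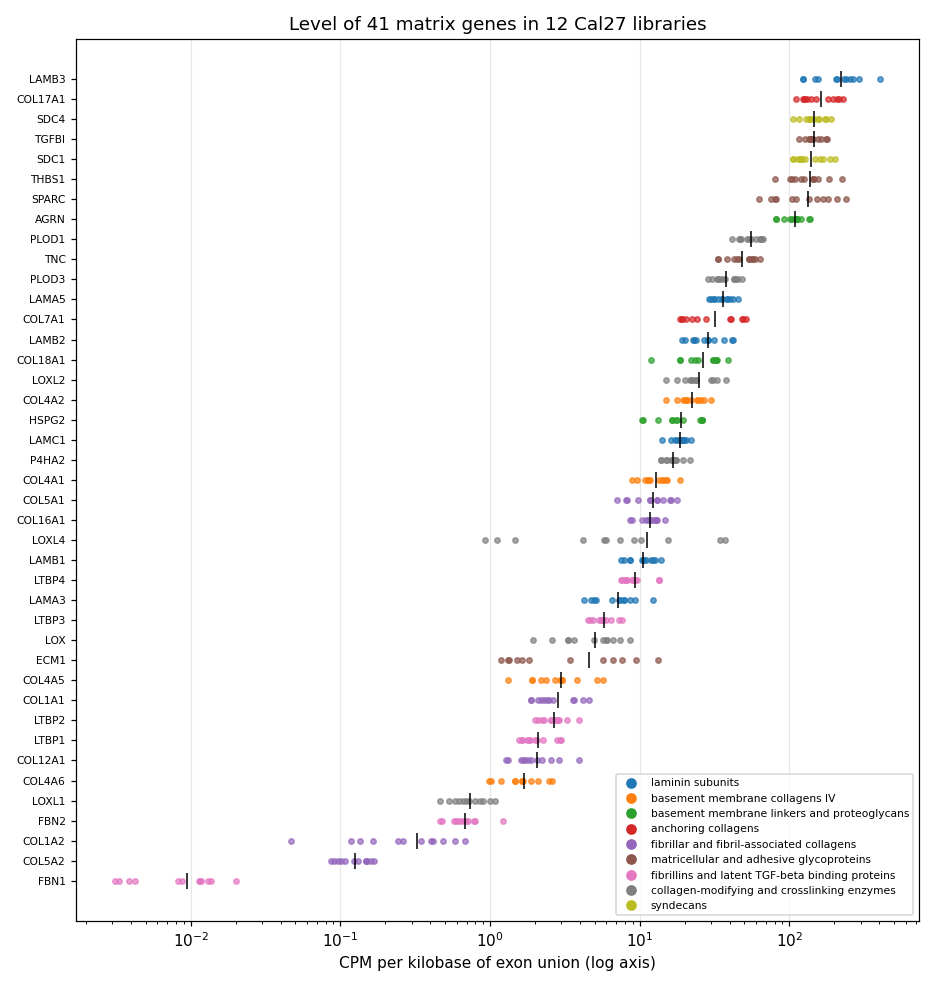
CPM per kilobase of exon (log axis) for the 41 members that passed the filter, ordered by mean. Each point is 1 of 12 libraries, the black mark is the mean and the colour gives the role; LAMB3 leads at 221 and FBN1 is last at 0.00942 CPM per kilobase.

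Library totals ran from 62953957 to 122311183 counts, and the members took between 0.769% and 1.03% of them. Low counts followed another rule in control replicates 1 and 2, where 42.88% and 42.18% of counts from 1 to 19 were even, against 96.8% to 97.85% in the other 10 libraries. The part this plays in comparisons with control was not tested directly. Fits without both libraries leave replicate 3 alone for control. From these fits, a named gene's value is given only where its direction changed. Markers of squamous epithelium summed to between 5510 and 14800 CPM per library, and 8 of 8 passed the filter. Of 9 fibroblast markers 3 passed, the sum was 0.687 to 3.52 CPM, and POSTN was at 0 in every library. Leukocyte markers summed to 13.3 to 49 CPM, most of it CD68, and CD3E was at 0. The rest had mean CPM of 3.2 (CD14), 1.42 (CSF1R), 0.047 (LYZ), 0.0194 (CD79A) and 0.00593 (PTPRC). Endothelial markers summed to 5.74 to 37.8 CPM, most of it CDH5. The rest had mean CPM of 2.18 (VWF), 0.0133 (TEK), 0.00907 (PECAM1), 0.00752 (TIE1) and 0.00669 (KDR). In bulk samples, fewer cells of a type and less RNA per cell cannot be told apart.

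Between conditions, no member passed an adjusted p of 0.05 in edgeR. Replicates with the same number in the labels deviated together, so each comparison was also fitted with the replicate number as a block. Class with memory against class without called 0 of 41 members without the block (0% of all genes tested) and 0 of 41 with it (0.00648%). Stiff-primed against control called 0 of 41 without the block (0% of genes) and 0 of 41 with it (0.583%), and LPA-primed against control called 0 of 41 in both fits (0% in both). FAKi against LPA-primed called 0 of 41 in both fits (0% in both). Against control, FAKi called 0 of 41 without the block (0%) and 0 of 41 with it (0.564%). Stiff-primed against LPA-primed also called 0 of 41 in both fits (0% and 0.00648%). With the block, the share of all genes was 0.24% higher and 0.343% lower for stiff-primed against control, and 0.155% higher and 0.408% lower for FAKi against control.

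At an unadjusted p under 0.05 in the block fit, 8 of 41 members were found between the classes (9.94% of all genes), 10 for stiff-primed against control (10.2%), 4 for LPA-primed against control (7.97%), 13 for FAKi against LPA-primed (22.3%), 14 for FAKi against control (16.6%) and 4 between stiff-primed and LPA-primed (9.42%). Without the block these counts were 3, 1, 1, 4, 3 and 0, with 2.89%, 1.94%, 1.37%, 5.43%, 3.55% and 1.39% of all genes. In the same order, DESeq2 without the block called 0 members in each comparison (0%, 0.0259%, 0.013%, 0.0324%, 0.0194% and 0% of all genes), as did limma voom with it (0.00648%, 0.771%, 0%, 0.24%, 1.14% and 0.00648%). DESeq2 with the block called 2 members between the classes (0.836% of all genes), 2 for stiff-primed against control (2.95%), 5 for FAKi against LPA-primed (7.97%) and 4 for FAKi against control (4.56%). It called 0 for LPA-primed against control (0.531%) and between stiff-primed and LPA-primed (0.46%).

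The replicate number, by contrast, split the members. In edgeR with condition in the model, 23 of 41 members differed between number 3 and number 1 (39.8% of all genes), 11 higher (20.6%) and 12 lower (19.2%). Between number 2 and the mean of 1 and 3, 16 of 41 differed (27.2% of all genes), 5 higher (14.6%) and 11 lower (12.6%). The median member had 54.6% of its sum of squares over libraries in replicate number and 18.7% in condition, against 50.5% and 19.3% over all genes tested. Number took more than condition in 31 of 41 members (75.6%, against 73.2% of all genes). What a replicate number stands for is not stated in the labels.

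**Figure D2:**
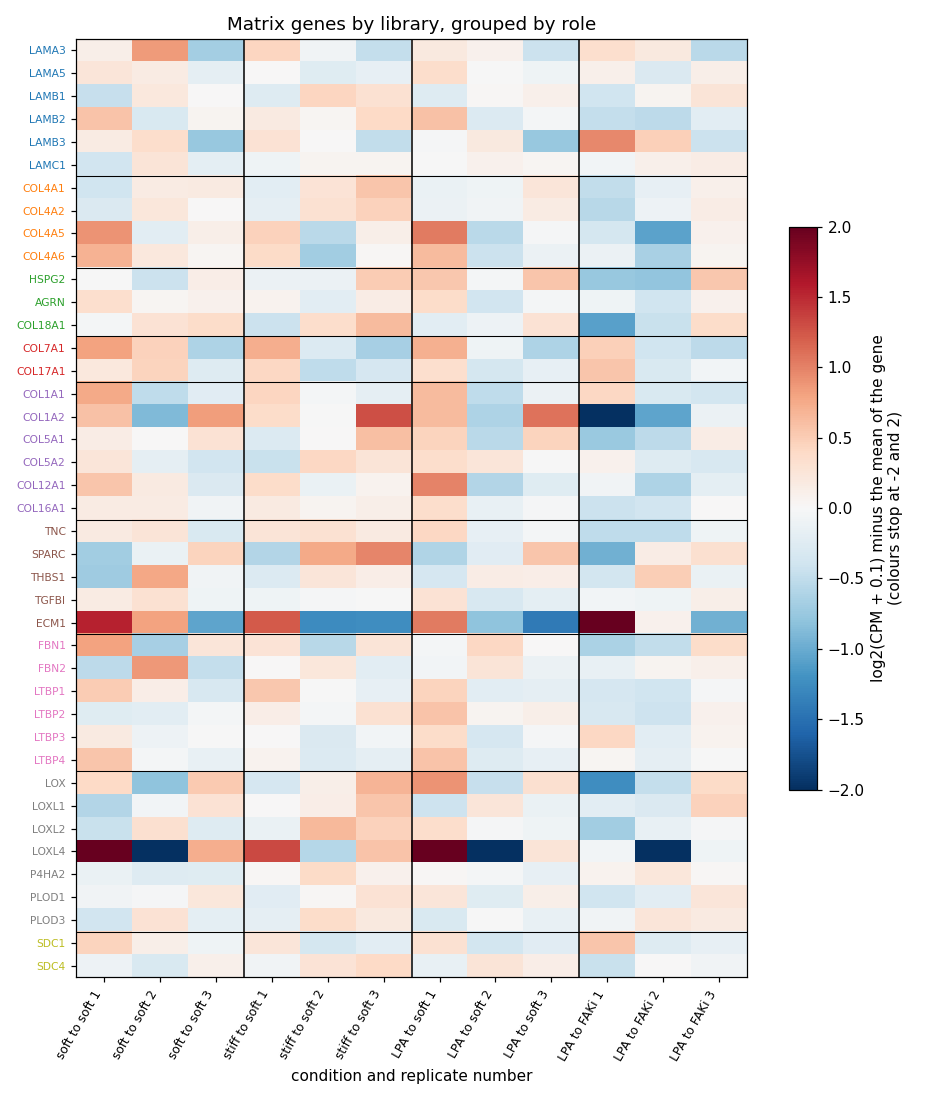
Log2(CPM + 0.1) of 41 members minus the mean of each gene, in 12 libraries ordered by condition and replicate number, with rows grouped by role. ECM1 and COL7A1 are red in number 1 and blue in number 3 of every condition, while SPARC and COL18A1 run from blue to red.

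Laminins are trimers of an alpha, a beta and a gamma chain. LAMB3, the beta chain of the laminin under hemidesmosomes, measured 1046, 1189.95 and 555 CPM in control replicates 1, 2 and 3, 1139, 939 and 663 in stiff-primed, 925, 1073 and 553 in LPA-primed, and 1820.47, 1307 and 697 in FAKi. Number 3 was the lowest library of every condition, and FAKi replicates 1 and 2 were the highest libraries of all, while FAKi replicate 3 lay inside the range of the other conditions. In edgeR with the block, LAMB3 differed between FAKi and LPA-primed by 0.54 ± 0.139 on the log2 scale, positive in 3 of 3 numbers (0.98, 0.29 and 0.33) with an adjusted p of 0.0863. Without control replicate 2, a library outside this comparison that shares in the estimate of the spread, the value was 0.52 with an adjusted p of 0.0478 in edgeR. Without FAKi replicate 1 it was 0.34, and over the 12 fits that leave out 1 library the adjusted p ran from 0.0478 to 0.342.

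Between number 3 and number 1, LAMB3 fell by 0.96 ± 0.121 on the log2 scale (edgeR adjusted p = 0.000152), and its 4 libraries of number 3 lay below the 4 of number 1. LAMA3, the alpha chain of the same laminin, fell by 0.81 ± 0.167 in that contrast (edgeR adjusted p = 0.00295), from 82.1 to 102 CPM in number 1 to 47.0 to 56.1 CPM in number 3, with no overlap. Both of these chains were thus lower in number 3. The ratio of LAMB3 to LAMA3 in CPM, which follows the pair across libraries and is no ratio of levels per length, was 19.0, 15.1 and 13.4 in FAKi replicates 1, 2 and 3 and 8.72 to 13.3 in the other 9 libraries. It was looked at after the values were seen and was not tested. LAMB1, a beta chain of the laminins with broader expression, rose by 0.51 ± 0.0759 (edgeR adjusted p = 0.00042), from 46.6 to 53.9 CPM in number 1 to 64.8 to 79.0 CPM in number 3.

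LAMA5, the alpha chain of the widespread epithelial laminins, ran from 334 to 518 CPM and LAMC1, the common gamma chain, from 112 to 174.3 CPM over 12 libraries, with conditions overlapping. LAMB2, a beta chain that replaces LAMB1 in some laminins, had means of 178 ± 54.8, 186 ± 23.5, 177 ± 57.7 and 122 ± 14.5 CPM (SD, n = 3) in control, stiff-primed, LPA-primed and FAKi. FAKi was below LPA-primed in 3 of 3 numbers, its libraries overlapped those of control and LPA-primed and lay below those of stiff-primed, a pair of conditions that was not tested, and the difference of -0.50 ± 0.169 in the block fit had an edgeR adjusted p of 0.129. LAMC1 differed between FAKi and control by 0.31 with an edgeR adjusted p of 0.0357 once control replicate 2 was left out of the block fit, and was not called with it. Over the 12 such fits the LAMC1 value ran from 0.06 (without control replicate 1) to 0.31.

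LAMB3, LAMA3 and ECM1 were the members among 38 with a promoter entry that held TGANTCA in the 250 bases before the start. N is any base, and the letters read the same on both strands. This pattern is wider than the core of the AP-1 site, which has C or G at N. The LAMB3 and LAMA3 matches had C there, and the ECM1 match had A. These 3 genes are shown because all 3 were called lower in number 3 than in number 1 with no overlap. All libraries of number 3 lay below those of number 1 in 8 of 41 members (19.5%) and in 16.1% of all genes. Of these 8 members, COL7A1, COL17A1, LTBP4 and SDC1 were searched and lacked the pattern, and COL1A1 had no promoter entry. The letters come from the RefSeq promoter table of GRCh38.p14, 5′ to 3′ on the strand of the gene, with the match in capitals, and the match began 67, 125 and 204 bases before the start. They lie at chr1:209651405-209651471 (minus strand), chr18:23872865-23872931 (plus) and chr1:150507875-150507941 (plus).
LAMB3: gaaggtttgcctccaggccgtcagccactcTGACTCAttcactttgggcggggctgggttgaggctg
LAMA3: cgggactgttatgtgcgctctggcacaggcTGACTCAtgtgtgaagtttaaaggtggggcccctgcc
ECM1: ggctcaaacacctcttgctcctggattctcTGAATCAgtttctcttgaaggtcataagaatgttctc
The share of members with TGANTCA was 7.89% (3 of 38), against 8.06% of 27305 genes in the table, so this pattern was no more frequent among members than in general. A match describes the letters and is not evidence of binding.

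Collagen IV chains form the network of the basement membrane. COL4A2 measured 232, 333 and 287 CPM in control replicates 1, 2 and 3, 252, 350.3 and 389 in stiff-primed, 262, 269.9 and 318 in LPA-primed, and 194, 264 and 314 in FAKi. Number 1 was the lowest library in every condition, and the conditions overlapped. The partner chain COL4A1 kept close to it: the ratio of COL4A2 to COL4A1 in CPM lay between 2.67 and 3.21 in 12 libraries, a range of 1.2-fold. From number 1 to number 3, COL4A1 rose by 0.58 ± 0.0782 and COL4A2 by 0.48 ± 0.0914 on the log2 scale (edgeR adjusted p = 0.000233 and 0.00189), in both genes with no overlap.

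COL4A1 and COL4A2 are transcribed in opposite directions from starts 127 bases apart, and the stretch between the starts is shown because the pair moved together. It lies at chr13:110307158-110307283 (GRCh38.p14, RefSeq promoter table), is given on the plus strand, toward COL4A2, and holds 1 CCAAT and 1 GGGCGG, in capitals, searched on both strands.
COL4A1 and COL4A2: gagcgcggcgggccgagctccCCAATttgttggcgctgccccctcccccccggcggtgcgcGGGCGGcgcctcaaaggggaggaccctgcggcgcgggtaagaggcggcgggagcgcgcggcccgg
In the 250 bases before the start, CCAAT was found for 13 of 38 members (34.2%, against 37% of all genes in the table) and GGGCGG, the core of the GC box, for 31 of 38 (81.6%, against 46.2%). The second share is a description of these windows, as the table also holds genes of other kinds than the members.

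COL4A5 and COL4A6, the other collagen IV pair of this list, were lower and moved otherwise. COL4A5 measured 40.5, 18.6 and 23.5 CPM in control replicates 1, 2 and 3, 29.9, 14.8 and 23.5 in stiff-primed, 44.3, 14.8 and 21.2 in LPA-primed, and 17.0, 10.3 and 23.0 in FAKi. Number 1 was the highest library of the first 3 conditions and number 2 the lowest of all 4. In FAKi replicate 1 was low and replicate 3 was at the level of the other conditions. Against control the difference was -0.68 ± 0.215 with an edgeR adjusted p of 0.162 in the block fit, and without FAKi replicate 3 it was -1.002 with 0.0285. Without FAKi replicate 1 it was -0.42, and over the 12 fits that leave out 1 library the edgeR adjusted p ran from 0.0285 to 0.557. DESeq2 with the block gave -0.68 ± 0.203 (adjusted p = 0.025) against control and -0.58 ± 0.202 (adjusted p = 0.048) against LPA-primed, where edgeR with the block gave -0.58 ± 0.215 (adjusted p = 0.151). Number 2 against numbers 1 and 3 gave -0.91 ± 0.166 for COL4A5 (edgeR adjusted p = 0.00355), and COL4A6 was called lower in the same contrast. The ratio of COL4A5 to COL4A6 in CPM ran from 1.45 to 2.59.

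Perlecan, agrin and COL18A1 are heparan sulfate proteoglycans of the basement membrane. AGRN measured 995, 812 and 839 CPM in control replicates 1, 2 and 3, 828, 685 and 881 in stiff-primed, 1017, 607 and 775 in LPA-primed, and 750.2, 603 and 837 in FAKi. Number 2 was the lowest library of every condition. HSPG2 measured 255, 189 and 280.3 CPM in control replicates 1, 2 and 3, 236, 236 and 363 in stiff-primed, 372, 249 and 375 in LPA-primed, and 151, 148 and 373 in FAKi. FAKi replicates 1 and 2 were the lowest libraries, while replicate 3 equalled LPA-primed replicate 3.

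For HSPG2 the difference between FAKi and LPA-primed was -0.66 ± 0.195 (edgeR adjusted p = 0.106 with the block), and per number it was -1.31, -0.75 and -0.01. Without FAKi replicate 3 it was -0.98 ± 0.135 (edgeR adjusted p = 0.0247) and without FAKi replicate 1 it was -0.44, with adjusted p from 0.0247 to 0.399 over 12 such fits. For the full set of libraries, DESeq2 with the block gave -0.66 ± 0.18 (adjusted p = 0.00927). COL18A1, whose C-terminal fragment is endostatin, measured 168, 211 and 223 CPM in control replicates 1, 2 and 3, 128, 221 and 268 in stiff-primed, 149.6, 161 and 212 in LPA-primed, and 81.6, 127 and 222 in FAKi. Again FAKi replicates 1 and 2 were below the other conditions' libraries of their number and replicate 3 was not. Against control the difference was -0.58 ± 0.169 (edgeR adjusted p = 0.138 with the block), -0.81 without FAKi replicate 3 (edgeR adjusted p = 0.029) and -0.59 ± 0.162 in DESeq2 with the block (adjusted p = 0.0123). Without FAKi replicate 1 the COL18A1 value was -0.42, with an edgeR adjusted p of 0.029 to 0.506 over the fits without 1 library. Between numbers 3 and 1, COL18A1 rose by 0.85 ± 0.147 and HSPG2 by 0.52 ± 0.169 (edgeR adjusted p = 0.00104 and 0.0297).

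The anchoring collagens followed replicate number. COL17A1 measured 1092, 1287 and 794 CPM in control replicates 1, 2 and 3, 1262, 664 and 751 in stiff-primed, 1186, 743 and 846 in LPA-primed, and 1385, 766 and 908 in FAKi. The 4 libraries of number 1 lay above the 4 of number 3, and conditions overlapped. COL7A1 ran from 381 to 476 CPM in number 1, from 207 to 375 in number 2 and from 172 to 190.4 in number 3, a fall of 1.28 ± 0.124 on the log2 scale from number 1 to number 3 (edgeR adjusted p = 3.11e-05). Between conditions the means of COL7A1 were 343 ± 152, 283 ± 149, 294 ± 140 and 259.6 ± 105 CPM (SD, n = 3) in control, stiff-primed, LPA-primed and FAKi, which differed by less than the spread within each. That spread is mostly replicate number, which held 87.1% of the sum of squares of COL7A1. Condition held 5.58% and the remainder 7.35%.

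Among fibrillar and fibril-associated collagens, COL5A1 regulates the diameter of collagen fibrils. It measured 112, 101 and 122.97 CPM in control replicates 1, 2 and 3, 83.7, 101 and 152 in stiff-primed, 137, 69.2 and 137 in LPA-primed, and 60.4, 70.5 and 112 in FAKi. COL1A2, a chain of type I collagen, measured 2.20, 0.731 and 2.64 CPM in control replicates 1, 2 and 3, 1.88, 1.42 and 3.67 in stiff-primed, 2.27, 0.903 and 3.16 in LPA-primed, and 0.255, 0.634 and 1.31 in FAKi. Of the rest of this group, COL16A1 ran from 52.6 to 90.9, COL12A1 from 15.5 to 47.5 and COL5A2 from 0.614 to 1.2 CPM over 12 libraries. These 3 genes overlapped between the conditions compared by test. For COL1A2, FAKi was the lowest of the 4 conditions within each number, and its replicate 3 lay above replicate 2 of control and LPA-primed, so these groups overlapped. Its FAKi libraries lay below the stiff-primed ones, a pair that was not tested.

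COL1A2 differed between FAKi and LPA-primed by -1.46 ± 0.416 on the log2 scale (edgeR adjusted p = 0.101 with the block) and by -3.06, -0.50 and -1.26 within numbers 1, 2 and 3. DESeq2 with the block called COL1A2 against LPA-primed (-1.46 ± 0.396, adjusted p = 0.00878) and against control (-1.30 ± 0.399, adjusted p = 0.0323), where edgeR with the block gave -1.29 ± 0.422 (adjusted p = 0.176). Without FAKi replicate 1 the COL1A2 values were -0.96 against LPA-primed and -0.78 against control in edgeR with the block. COL1A1, the other chain, differed between FAKi and LPA-primed by -0.09 ± 0.135 (edgeR adjusted p = 0.733 with the block), with means of 19.7 ± 9.76, 19.5 ± 4.49, 19.2 ± 8.07 and 17.7 ± 5.72 CPM (SD, n = 3) in control, stiff-primed, LPA-primed and FAKi. The ratio of COL1A1 to COL1A2 in CPM ran from 4.4 to 95.4, with the highest value in FAKi replicate 1. COL1A1 fell from number 1 to number 3 by 0.79 ± 0.117 (edgeR adjusted p = 0.000395).

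**Figure D3:**
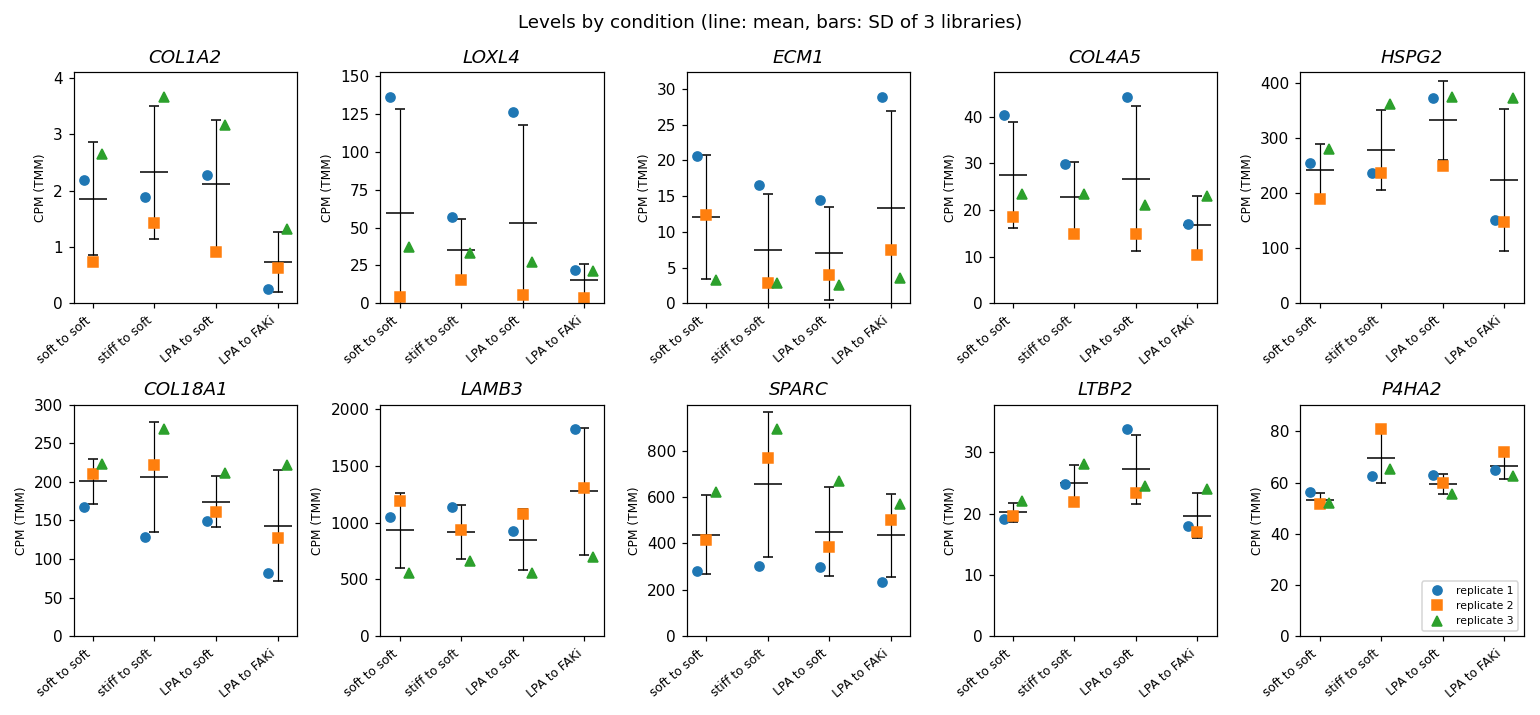
CPM of 10 members by condition, with a marker for each replicate number, the mean as a line and the SD of 3 libraries as bars. Replicates 1 and 2 of FAKi are low for COL1A2, HSPG2 and COL18A1 while replicate 3 of HSPG2 and COL18A1 is not, and P4HA2 in control lies below stiff-primed and FAKi without overlap.

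Matricellular proteins bind matrix and growth factors without building the scaffold itself. THBS1, thrombospondin 1, measured 626, 1747 and 974 CPM in control replicates 1, 2 and 3, 849, 1219.6 and 1121 in stiff-primed, 813, 1133 and 1122 in LPA-primed, and 792, 1441 and 938 in FAKi. Number 2 was the highest library of every condition, and the rise over numbers 1 and 3 was 0.63 ± 0.12 (log2, edgeR adjusted p = 0.00439) with no overlap. SPARC, a collagen-binding glycoprotein, measured 279, 414 and 619.9 CPM in control replicates 1, 2 and 3, 302, 770.2 and 892 in stiff-primed, 298, 386 and 667 in LPA-primed, and 232, 502 and 567.9 in FAKi. Number 1 was lowest and number 3 highest in every condition, a rise of 1.28 ± 0.132 (edgeR adjusted p = 4.4e-05).

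Stiff-primed held the highest SPARC library of each number. Its difference from control was 0.52 ± 0.15 with an edgeR adjusted p of 0.183 in the block fit, and 0.11, 0.90 and 0.52 within numbers 1, 2 and 3. DESeq2 with the block called it (0.52 ± 0.146, adjusted p = 0.0172). Leaving out 1 library gave 0.35 (without stiff-primed replicate 2) to 0.68 in edgeR. LPA-primed differed from control by 0.04 ± 0.149 in the block fit of edgeR (adjusted p = 0.961); the difference between these contrasts was tested as stiff-primed against LPA-primed, where SPARC differed by 0.48 ± 0.15 (edgeR adjusted p = 0.452). In the block fit of edgeR, the squamous markers KRT14, KRT17 and DSG3 were called lower in stiff-primed than in control. These were 3 of 8 markers (0.343% of all genes), and 0 were called higher (0.24%). Of the 8 markers, 6 were lower and 2 higher in 3 of 3 numbers (15.7% and 14.6% of all genes). The part of these markers in the SPARC values was not tested.

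ECM1, an extracellular matrix glycoprotein of skin, measured 20.6, 12.3 and 3.31 CPM in control replicates 1, 2 and 3, 16.5, 2.88 and 2.90 in stiff-primed, 14.5, 3.97 and 2.57 in LPA-primed, and 28.9, 7.42 and 3.55 in FAKi. Number 1 was the highest library of every condition, and within each number both conditions with memory lay below both without it. From number 1 to number 3 ECM1 fell by 2.67 ± 0.261 (edgeR adjusted p = 3.3e-05). Class with memory against class without gave -0.85 ± 0.195 with an edgeR adjusted p of 0.23 in the block fit, and DESeq2 with the block called it (-0.84 ± 0.185, adjusted p = 0.003). FAKi against LPA-primed gave 0.80 ± 0.288 (edgeR adjusted p = 0.143 with the block), and 0.81 without control replicate 2 (edgeR adjusted p = 0.0353, the lowest of 12 fits without 1 library, with 0.474 the highest). Without control replicates 1 and 2 and without the block, LPA-primed was above control by 1.06, as only replicate 3, the low number, then stood for control. TNC, tenascin C, had little of its variation in replicate number (4.43%) and 54.9% in condition, with means of 448 ± 88.0, 509.9 ± 24.2, 458 ± 102 and 336 ± 59.3 CPM (SD, n = 3) in control, stiff-primed, LPA-primed and FAKi. FAKi against LPA-primed gave -0.43 ± 0.174 (edgeR adjusted p = 0.179 with the block). TGFBI, an integrin-binding protein induced by TGF-beta, ran from 332.9 to 516 CPM with conditions overlapping.

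Latent TGF-beta binding proteins hold inactive TGF-beta in the matrix, next to fibrillin microfibrils. LTBP4, one of them, measured 73.1, 48.4 and 44.9 CPM in control replicates 1, 2 and 3, 52.0, 41.02 and 43.9 in stiff-primed, 73.8, 41.4 and 44.0 in LPA-primed, and 50.9, 43.8 and 49.6 in FAKi. Number 1 was highest in every condition. LTBP2 was picked after its values were seen, as the member whose LPA-primed libraries all lay above control (2.64% of all genes did so): 19.1, 19.5 and 22.0 CPM in control replicates 1, 2 and 3 and 33.7, 23.4 and 24.5 in LPA-primed, with 24.8, 21.9 and 28.1 in stiff-primed and 18.04, 17.0 and 23.9 in FAKi. Both conditions with memory were above both without it within each number.

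Class with memory against class without gave 0.39 ± 0.0951 for LTBP2 (edgeR adjusted p = 0.249 with the block), and DESeq2 with the block gave 0.39 ± 0.0996 (adjusted p = 0.0207). FAKi against LPA-primed gave -0.47 ± 0.136 (edgeR adjusted p = 0.101 with the block) and -0.47 ± 0.141 in DESeq2 with the block (adjusted p = 0.0186). Without LPA-primed replicate 1 the LTBP2 value was -0.28 in edgeR. FBN2, a fibrillin, ran from 5.54 to 14.7 CPM and was higher in number 2 than in numbers 1 and 3 by 0.55 ± 0.171 (edgeR adjusted p = 0.0349). LTBP3 ran from 27.9 to 46.9 CPM, LTBP1 from 10.4 to 20 CPM and FBN1 from 0.0477 to 0.308 CPM.

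Collagen-modifying enzymes were split between the hydroxylases, whose highest library stood 1.56- to 1.68-fold over the lowest, and the lysyl oxidases, where it stood 2.32- to 40.5-fold over it. PLOD1, a lysyl hydroxylase, measured 154, 159 and 188 CPM in control replicates 1, 2 and 3, 138, 164 and 197 in stiff-primed, 191, 137 and 175 in LPA-primed, and 122, 139 and 191 in FAKi. P4HA2, a catalytic subunit of prolyl 4-hydroxylase, was picked after its values were seen, as the member whose control libraries all lay below stiff-primed (2.16% of all genes) and below FAKi (3.04%). It measured 56.4, 51.7 and 51.9 CPM in control replicates 1, 2 and 3, 62.4, 80.8 and 65.5 in stiff-primed, 63.0, 59.98 and 55.4 in LPA-primed, and 65.0, 72.0 and 62.5 in FAKi. Control was the lowest condition within each number.

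Condition held 66.7% of the sum of squares of P4HA2, the highest share named here, and replicate number 12.4%. Stiff-primed against control gave 0.38 ± 0.0856 (edgeR adjusted p = 0.0903 with the block), 0.46 without stiff-primed replicate 1 (edgeR adjusted p = 0.0472) and 0.38 ± 0.0965 in DESeq2 with the block (adjusted p = 0.00633). Without stiff-primed replicate 2 it was 0.28, and the edgeR adjusted p ran from 0.0472 to 0.397 over 12 such fits. FAKi against control gave 0.31 ± 0.0856 (edgeR adjusted p = 0.125 with the block) and 0.31 ± 0.0966 in DESeq2 with the block (adjusted p = 0.0333). FAKi against LPA-primed for PLOD3, another lysyl hydroxylase, was 0.27 ± 0.0823 (edgeR adjusted p = 0.111 with the block) and 0.27 ± 0.0913 in DESeq2 with the block (adjusted p = 0.0421). Over 12 fits without 1 library its edgeR adjusted p ran from 0.0451 (without control replicate 2, where PLOD3 was at 0.26) to 0.399.

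LOXL4, a lysyl oxidase-like enzyme, measured 136, 4.10 and 37.4 CPM in control replicates 1, 2 and 3, 56.6, 15.2 and 33.5 in stiff-primed, 126, 5.34 and 27.1 in LPA-primed, and 21.7, 3.37 and 21.2 in FAKi. Number 2 was the lowest library of every condition, at -2.87 ± 0.436 on the log2 scale against numbers 1 and 3 (edgeR adjusted p = 0.0015, no overlap). FAKi against control gave -1.34 ± 0.513 (edgeR adjusted p = 0.231 with the block), and -2.65, -0.28 and -0.82 within numbers 1, 2 and 3. LOXL1 rose from number 1 to number 3 by 0.64 ± 0.206 (edgeR adjusted p = 0.0286). LOXL2 ran from 53.1 to 134.9 CPM, LOX from 10.04 to 44.6 CPM and LOXL1 from 1.1 to 2.54 CPM.

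The syndecans are transmembrane proteoglycans that bind matrix and growth factors at the cell surface. SDC1 measured 619, 492 and 426 CPM in control replicates 1, 2 and 3, 537, 353 and 391 in stiff-primed, 557, 352 and 389 in LPA-primed, and 667, 379 and 407 in FAKi. Number 1 was highest in every condition, with no overlap with number 3, a fall of 0.56 ± 0.0753 from number 1 to number 3 (edgeR adjusted p = 0.000231). SDC4 went the other way between these numbers, by 0.33 ± 0.0966 (edgeR adjusted p = 0.0179).

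Read by role, the values for the FAK inhibitor were mostly negative among collagens, with no call in edgeR. In the fit without the block, FAKi against LPA-primed had a median member log2 fold change of -0.153, with 13 of 41 positive and 28 negative, against a median of -0.0048 and 49.2% positive over all genes tested. All 6 fibrillar and fibril-associated collagens were negative (median -0.447), as were 4 of 4 collagen IV genes (-0.243) and 3 of 3 linkers and proteoglycans (-0.279), while laminins had a median of 0.0327. Of the 2 anchoring collagens 1 was positive and 1 negative (median -0.0197). Within number 3 the medians were -0.273 for fibrillar and fibril-associated collagens, 0.0486 for collagen IV and 0.0689 for linkers and proteoglycans. Within numbers 1, 2 and 3 the median member differed by -0.361, -0.0371 and 0.0689, the most negative in number 1. Leaving out 1 library moved the median to between -0.298 (without FAKi replicate 3) and -0.0701 (without LPA-primed replicate 1). Members lower in 3 of 3 numbers were 10 of 41 (22.2% of all genes) and members higher in 3 of 3 were 7 (22.9%). No member had all 3 FAKi libraries above those of LPA-primed (5.95% of all genes) or all below (5.4%). In the same libraries the summed leukocyte markers, mostly CD68, were 49.04, 32.93 and 19.59 CPM in FAKi replicates 1, 2 and 3, against 13.27 to 20.33 CPM in the other 9 libraries. The endothelial markers, mostly CDH5, summed to 5.74, 16 and 15.97 CPM in FAKi and to 14.49, 20.24 and 23.36 CPM in LPA-primed. The fibroblast markers summed to 0.687, 2.18 and 1.37 CPM in FAKi and to 2.93, 1.29 and 1.59 CPM in LPA-primed. The part of these 3 marker lists in the collagen values was not tested.

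FAKi against control, which shares the FAKi libraries with that comparison, had a median of -0.144 with 33 of 41 members negative (0.00219 and 50.5% positive over all genes). P4HA2 was the member with all FAKi libraries above control, and 0 members had them all below (3.12% of all genes). Here 8 of 41 were lower in 3 of 3 numbers (17.7% of all genes) and 2 were higher (17.4%). Stiff-primed against control had a median of 0.00672 with 21 of 41 positive (48.2% of all genes), with 11 members higher (14.6% of all genes) and 7 lower (15.7%) in 3 of 3 numbers, and 0 with all libraries below control (2.19%). LPA-primed against control had a median of -0.0111 with 18 of 41 positive (46.5%), with 5 higher (15.8%) and 6 lower (18.3%) in 3 of 3 numbers and 0 with all libraries below control (2.18%). Stiff-primed against LPA-primed had a median of 0.0189 with 21 of 41 positive (50% of all genes), 5 higher (18.1%) and 3 lower (16.8%). Between the classes the median was 0.106, against -0.00694 over all genes; 26 of 41 members were positive (47.7% of all genes), 17 were higher in 3 of 3 numbers (19.1%) and 5 lower (20.8%), and 0 had all 6 libraries of one class above the other (0.0972% of all genes) or below it (0.0389%). Without LPA-primed replicate 1 the class median was 0.0328.

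**Figure D4:**
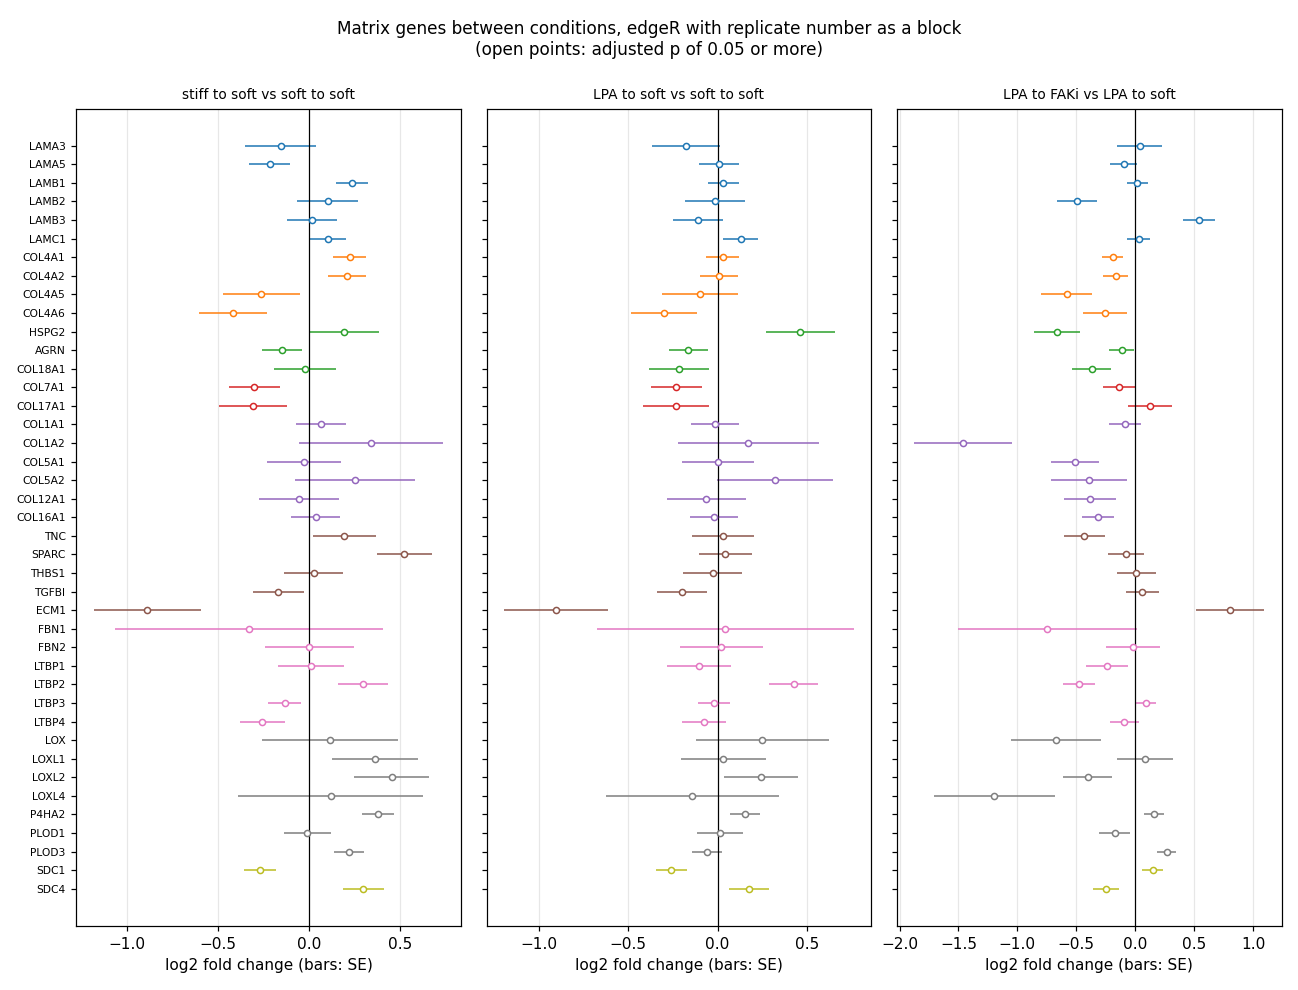
Log2 fold change (SE as bars) of 41 members, ordered and coloured by role, from edgeR with the replicate number as a block, for 3 comparisons of conditions. All points are open because no adjusted p was under 0.05; in the panel of FAKi against LPA-primed the fibrillar collagens and collagen IV genes lie left of 0 and LAMB3 and ECM1 right of it.

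By role, number 3 against number 1 called 2 of 2 anchoring collagens lower and, of 6 laminins, 1 higher and 2 lower in edgeR, where 20.6% of all genes were higher and 19.2% lower. COL4A1 and COL4A2 were the collagen IV genes called (2 of 4), both higher, and 2 of 3 linkers and proteoglycans were higher. Of 7 enzymes 3 were higher and 1 lower, of 5 matricellular genes 2 were higher and 1 lower, and of 2 syndecans 1 was higher and 1 lower. Of 6 fibrillar and fibril-associated collagens 2 were lower and 0 higher, and of 6 fibrillins and LTBPs 3 were lower and 0 higher. The summed markers of squamous epithelium moved with these numbers: 11510 to 14810 CPM in number 1, 5506 to 11220 in number 2 and 7048 to 9808 in number 3. The list did not move as 1: of its 8 markers, 4 were called lower in number 3 than in number 1. EPCAM was called higher, by 0.56 ± 0.0685 (edgeR adjusted p = 0.000133). The part of these markers in the members' differences was not tested. The count of 23 members fell to 15 without stiff-primed replicate 3, and the 16 members of number 2 against 1 and 3 fell to 8 without LPA-primed replicate 2.

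**Figure D5:**
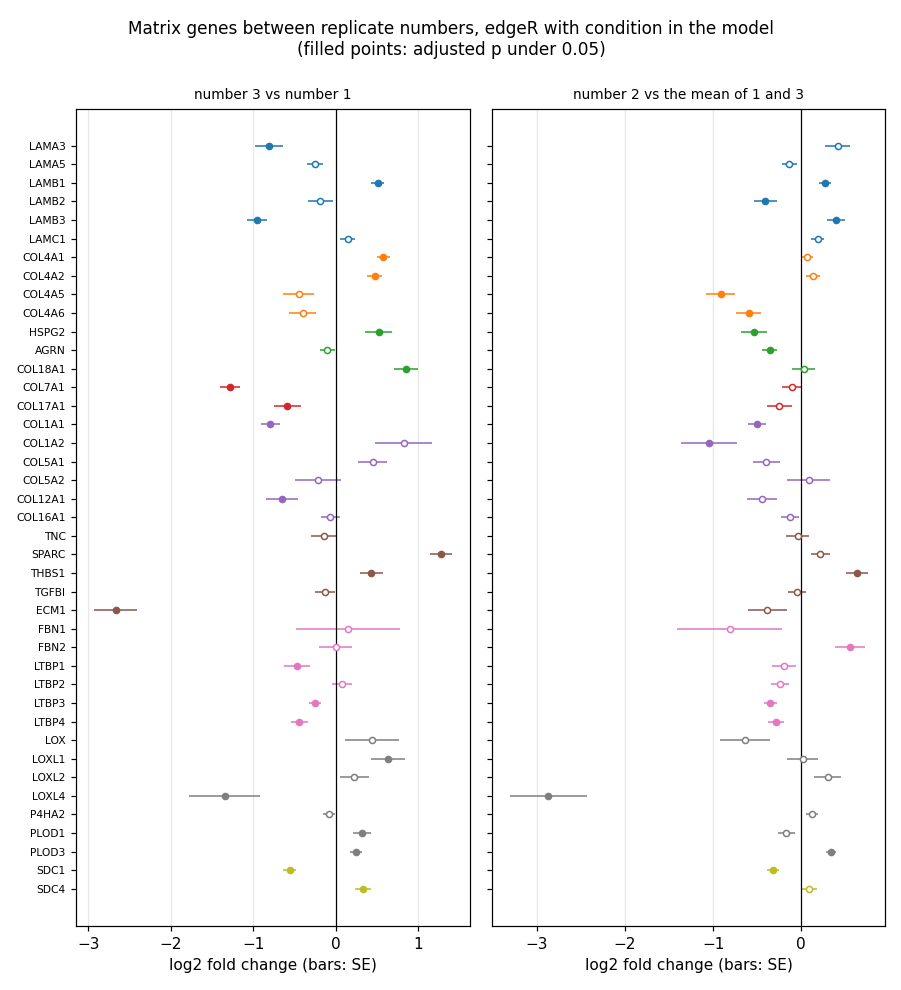
Log2 fold change (SE as bars) of 41 members between replicate numbers, from edgeR with condition in the model; filled points had an adjusted p under 0.05. ECM1 at -2.67 and SPARC at 1.28 are the ends of the first panel, and LOXL4 at -2.87 is the lowest of the second.

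Matrix genes outside the member list, chosen as further genes of the same pathways, were called in neither fit of edgeR in any of the 6 comparisons of conditions and classes. Between numbers 3 and 1, the genes of collagen folding, secretion and processing had 9 of 21 tested called higher and 2 lower, where 20.6% and 19.2% of all genes were. Among them SERPINH1, the collagen chaperone of the endoplasmic reticulum, rose by 0.66 ± 0.0558 (edgeR adjusted p = 1.55e-05). Matrix receptors had 1 of 13 higher and 6 lower, other laminins, collagens and linkers 5 of 22 higher and 5 lower, and other glycoproteins and elastic fibre genes 5 of 15 higher and 2 lower. The shares of the laminin and collagen list (5 of 22 in each direction) were near those of all genes.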

How the data were processed

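RNA was measured by sequencing in 12 Cal27 libraries, 3 per condition. Per the labels, RNA came from an RNeasy kit and libraries from a stranded TruSeq kit. The authors deposited whole-number read counts per gene symbol, used here as deposited, and a log2 table not used here. The build hg19 and the tools STAR, HTSeq, cutadapt, FastQC and DESeq2 are named in the submitters' processing notes. Tool versions, annotation and the counting's strand setting were not given in the sources used here, so reads of overlapping and antisense genes may not be told apart. Symbols turned into dates numbered 28, with 0.1781% of counts. No column lacked a sample, and 0 pairs of libraries were identical.

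From the counts, edgeR 4.0.16 (R 4.3.3) with TMM scaling and filterByExpr by condition kept 15437 genes. Its quasi-likelihood F test gave log2 fold changes, with SE as the fold change over the root of F, and Benjamini-Hochberg adjusted p-values over all genes, called under 0.05. Classes were fitted as 2 groups of 6, conditions as contrasts among 4 groups. Log2 CPM used a prior count of 2. The main fit has no block. Replicate numbers come from the labels. Same-numbered libraries deviated together from the means of their conditions (r 0.312 to 0.659 over 18 pairs). A fit with the number as a block therefore stands beside the main fit. Pairs with different numbers had r of -0.517 to 0.0372 (36 pairs). Taking deviations from condition means makes these negative when same-numbered pairs are positive, so they are no separate support. Alternatives were other size factors, no filter, DESeq2 1.42.0, limma voom 3.58.1, libraries left out and halved counts. The scripts were tested on simulated data.

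Depth, at 62953957 or more counts per library, limits the lowest genes only; intervals cover no error beyond the spread of replicates. Values in every library were given for the gene with the highest CPM of each role and, in place of called genes, of which there were none, for the 8 with the largest block fold change of 1 direction in 3 of 3 numbers; number contrasts name the 5 largest in each direction, and others named were chosen after their values were seen. Members and lists were chosen with earlier results of these data known. Exon lengths are unions of GENCODE v29 exons on GRCh38 (43 of 43 members matched) and promoters are from RefSeq (38 of 43).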

Additional observations from a re-analysis of the deposited data

Results flagged for a closer look

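Each of 41 members, and their mean, was looked at in both classes of 6 libraries, and 1 library stood apart in 1 gene. LTBP4 in control replicate 1 was at 6.19 log2 CPM, and the nearest of the other 5 libraries of the class without memory was at 5.67. The gap was 0.707 of the range of the class, where 0.625 is needed. Chance alone flags about 1 in 20 groups, and it was 1 of 84 here (1.19%). Control replicate 1 is also 1 of the 2 libraries whose low counts followed another rule. LPA-primed replicate 1, which is not among them, had LTBP4 at 73.8 CPM, against 73.1 CPM in control replicate 1. Number 1 was the highest library for LTBP4 in every condition. The part of the counting rule or of the number in this flag was not tested.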

How the results depend on the processing

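Without the replicate block no alternative of scaling, filter, halved counts or left-out library called a member between conditions or classes in edgeR, and all genes called stayed at 0. DESeq2 without the block called 4 genes of all for stiff-primed and 2 for LPA-primed against control, 5 for FAKi against LPA-primed and 3 for FAKi against control. With the replicate block, genes of all called by edgeR, DESeq2 and limma voom were 1, 129 and 1 between classes, 90, 456 and 119 for stiff-primed against control, 0, 82 and 0 for LPA-primed against control, 0, 1231 and 37 for FAKi against LPA-primed, 87, 704 and 176 for FAKi against control, and 1, 71 and 1 for stiff-primed against LPA-primed. DESeq2 with the block called 2, 2, 0, 5, 4 and 0 members in the same order. The block changed no call of a member in edgeR.

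Leaving out 1 library in the block fit gave 0 to 4, 7 to 228, 0 to 0, 0 to 639, 0 to 307 and 0 to 3 genes in the same order, and 0 to 0, 0 to 1, 0 to 0, 0 to 3, 0 to 2 and 0 to 0 members. The highest counts came without control replicate 1 (4), FAKi replicate 1 (228 and 3) and control replicate 2 (639 and 307). Contrasts of replicate numbers ranged from 4792 to 6441 genes and 15 to 26 members (3 against 1), and from 1809 to 4741 genes and 8 to 19 members (2 against 1 and 3). Without control replicates 1 and 2, genes called for 2 against 1 and 3 were 2029 in place of 4204. The block fit without both called 4 genes between classes, 202 for FAKi against LPA-primed and 1 for stiff-primed against LPA-primed. ECM1 in LPA-primed against control was 1.06 without both and without the block, the 1 change of direction among the named values. The causes were not tested beyond the libraries removed. Of 198 alternatives and comparisons, 9 called at least 1 member.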
